A study of Mus musculus with 2 samples.

Results

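Interferon regulatory factors (IRFs) are transcription factors that switch on interferon genes and the genes that interferons induce, and Stat2 is a signal transducer that joins Irf9 in the complex formed behind the type I interferon receptor. The 9 genes described here are Irf1, Irf2, Irf3, Irf4, Irf5, Irf7, Irf8, Irf9 and Stat2, chosen by symbol from 28692 genes in the count tables, and all 9 were found in both libraries. Single cells washed from the peritoneum of germ-free C57BL/6 males, aged 10 weeks, were sequenced in droplets (10x Genomics, 3′ ends), and RNA molecules were counted by their molecular identifiers (UMIs). The WT library and the Xbp1dIEC library each pooled cells of 4 mice. The labels do not expand the name Xbp1dIEC. From general knowledge of the name it is read as loss of Xbp1, which regulates the response to unfolded proteins, in intestinal epithelial cells, and the driver of the deletion is not given in the sources used here. Since each genotype has 1 library, no test between genotypes was made and no difference is checked against replicates, and every 95% interval covers counting error only.

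The family divides by role. Irf3 and Irf7 are activated by phosphorylation downstream of nucleic acid sensors and induce the interferon genes, and Irf7 is itself induced by interferon. Irf5 acts downstream of Toll-like receptors in myeloid and B cells. Irf9 and Stat2 carry the signal of the type I receptor to DNA, Irf1 is induced by interferon gamma and drives antigen presentation genes, and Irf2 binds the same sites and can oppose Irf1. Irf4 and Irf8 bind DNA with partners such as Spi1 and Batf, and direct B cell, dendritic cell and macrophage differentiation.

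The files held 6204 WT and 6246 Xbp1dIEC barcodes with 56229330 and 49703442 UMIs, and 58 barcode sequences occurred in both. After filters and removal of doublets 6058 and 6113 cells were kept. Cells were placed in classes by UMIs of marker genes. The gates held 3128 WT and 3126 Xbp1dIEC macrophages, 483 and 747 B-1 cells, 393 and 301 B-2 cells, 270 and 217 T cells, 68 and 71 Cd209a+ cells, and 21 and 29 NK cells. Outside all gates were 1695 and 1622 cells. Macrophages had a median of 9712 UMIs in WT and 7818 in Xbp1dIEC, while T cells had 3594 and 3787. The B-1 gate selected deep cells, with medians of 8233 and 8851 UMIs against 5791 and 6675 over all B cells. Macrophage markers summed to 1933 and 1837 CPM (a gene's UMIs relative to the UMIs of all genes in that gate, at the usual CPM scale) in macrophages and to 41.2 and 31.1 CPM in T cells. A list of 7 genes of antigen-presenting cells, Cd74 and H2-Ab1 among them, summed to 61780 and 53828 CPM in Cd209a+ cells, and to 23593 and 21222 CPM in B-2 cells. Of that list, Ccr2 had 714 and 701 CPM in Cd209a+ cells and 11.1 and 3.68 CPM in B-2 cells. B-1 markers summed to 452 and 391 CPM in B-1 cells and to 174 and 150 CPM in T cells, and Cd5 and Ctla4 of that list are known T cell genes too.

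Promoter windows of all 9 genes were read from RefSeq (build GRCm38.p6), from 250 bases before to 50 bases after each start, to show which windows carry the letters that the complexes of this family and of STATs recognise. The searched letters were the interferon-stimulated response element (ISRE), which is GAAA, any 2 bases and GAAA again, and the gamma-activated site (GAS) TTCNNNGAA, on both strands. ISRE letters were in 3.44% and GAS letters in 8.30% of 32851 such windows. Each share is per window and for that set of letters alone, so neither is a share for the count of genes below. Matches were in 4 of the 9 genes and are in capitals below, with the pieces printed along the strand of the gene.
Irf1, chr11:53769899-53769957, plus strand, GAS starting 90 bases before the start: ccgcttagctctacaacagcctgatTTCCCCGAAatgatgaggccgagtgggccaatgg
Irf2, chr8:46739495-46739554, plus strand, ISRE 241 and GAS 224 bases before the start: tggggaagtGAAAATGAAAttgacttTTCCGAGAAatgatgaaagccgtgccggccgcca
Irf8, chr8:120736162-120736238, plus strand, GAS 171 and 153 bases before the start: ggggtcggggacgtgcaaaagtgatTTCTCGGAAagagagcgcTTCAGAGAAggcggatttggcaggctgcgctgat
Stat2, chr10:128270251-128270310, plus strand, ISRE on the opposite strand 222 bases before the start: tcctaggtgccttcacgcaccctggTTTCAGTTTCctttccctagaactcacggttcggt
The windows of Irf3, Irf4, Irf5, Irf7 and Irf9 held neither set of letters, which says nothing of the factors that act there. Irf1, Irf8 and Irf9 had 2 windows each, and the other windows of Irf1 and Irf8 held neither set. The shorter letters AANNGAAA, which an ISRE contains, were also searched and were in 23.9% of all windows. Among the 9 genes they were in the windows of Irf2 and Stat2. A match is a description of the letters and not a binding site.

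In macrophages Irf7 was the member furthest below WT and Irf4 the one furthest above it, while Irf2 was level. With 1 CPM added to each level, none of the 9 members passed 1.5-fold in either direction. Of 11648 genes, 2.35% were at least 1.5-fold lower and 0.232% at least 1.5-fold higher. Genes counted here had 20 or more UMIs over both libraries, and the median log2 ratio of those genes was -0.05. Log2 ratios are of Xbp1dIEC over WT with 1 CPM added, and their intervals are computed from the counts without the added CPM. Counts of genes past 1.5-fold use these log2 ratios. Without the added CPM the levels of Irf7 and Irf4 lay just past 1.5-fold, Irf7 lower and Irf4 higher.

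Irf7 (chr7:141262706-141266481) had 33.4 CPM (95% Poisson interval 31.4 to 35.4) in WT macrophages and 22.2 CPM (20.4 to 24.2) in Xbp1dIEC macrophages. The log2 ratio was -0.57 (-0.74 to -0.43), and the Poisson intervals did not overlap. The 1.5-fold line lies at a log2 ratio of 0.58 in size, so with 1 CPM added Irf7 was just inside it. After each cell was thinned to 2000 UMIs, 5.34% (4.58 to 6.19) of WT and 3.71% (3.08 to 4.43) of Xbp1dIEC macrophages had an Irf7 UMI, and before thinning 22.1% and 12.4%. In B-1 cells, where Irf7 was lowest in both libraries, the thinned shares were 1.04% and 0.669%. Irf3 (chr7:44997648-45002848), the partner that is present without induction, had 33.9 and 29.0 CPM (log2 ratio -0.22, -0.37 to -0.09).

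Irf9 (chr14:55603571-55610030) had 28.1 CPM in WT and 23.3 CPM in Xbp1dIEC macrophages (log2 ratio -0.26, -0.42 to -0.11). Stat2 (chr10:128270559-128292849) had 6.76 and 6.93 CPM, and its interval from -0.27 to 0.33 spans 0. So Irf9 was lower beyond counting error while the value of Stat2 was close to level. Irf1 (chr11:53770014-53778374) had 17.4 and 17.6 CPM, and Irf2 (chr8:46739732-46847458) had 237 and 238 CPM. Both differences lay within their counting intervals.

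Irf5 (chr6:29526625-29541871) had 99.3 CPM (95.8 to 103) in WT and 87.5 CPM (83.9 to 91.3) in Xbp1dIEC macrophages, a log2 ratio of -0.18. Irf8 (chr8:120736358-120756694), which directs monocyte and dendritic cell development, had 61.7 and 59.7 CPM (-0.05, -0.15 to 0.05). Irf4 (chr13:30749226-30766976) had 6.92 CPM (6.03 to 7.91) and 10.5 CPM (9.21 to 11.8), a log2 ratio of 0.53 (0.33 to 0.86). The Poisson intervals of Irf4 did not overlap, and it was the only one of the 9 members for which the Xbp1dIEC interval lay above that of WT in macrophages. Thinned shares with an Irf4 UMI were 1.5% and 2.05%, with intervals of 1.11 to 1.99 and 1.58 to 2.61 that overlap.

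**Figure D1:**
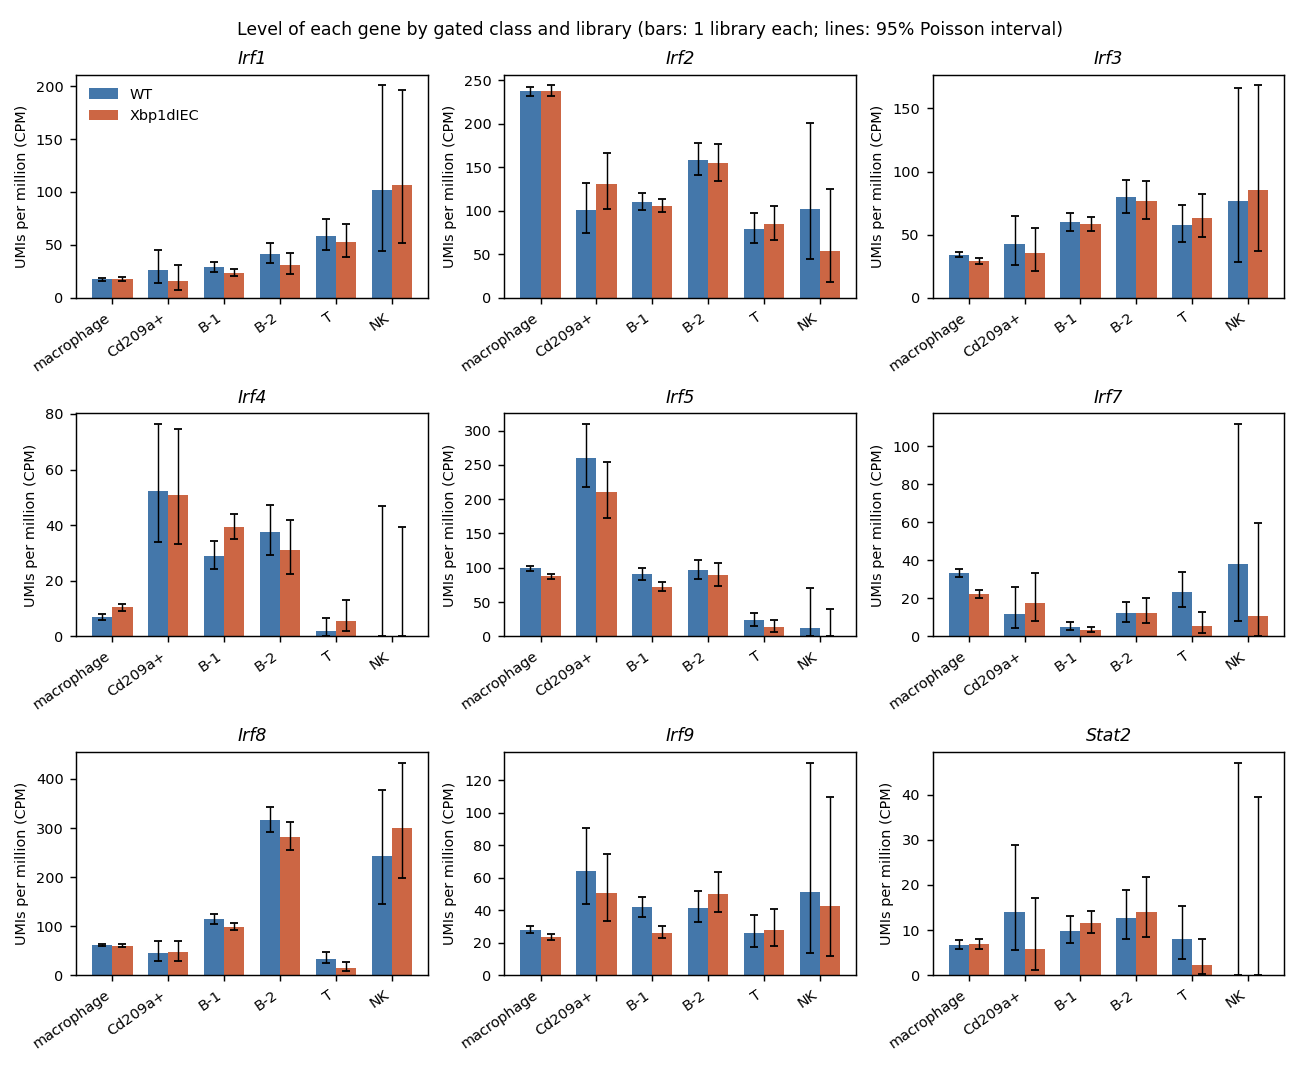
Level of each gene in CPM in the 6 gated classes, with blue bars for the WT library, orange bars for the Xbp1dIEC library and lines for 95% Poisson intervals. Irf5 stands highest in Cd209a+ cells, Irf8 in B-2 and NK cells and Irf2 in macrophages, and NK intervals are wide.

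Part of the macrophage gate was then split by marker UMIs into 2 subsets. Large macrophages had 2 or more summed UMIs of Gata6, Timd4 and Vsig4, and at most 4 of the Folr2 list. Folr2 macrophages had 10 or more summed UMIs of Folr2, Retnla and Cbr2, so a cell need not hold each of them. In neither subset were 869 WT and 912 Xbp1dIEC macrophages. In the Folr2 macrophages (516 WT and 510 Xbp1dIEC cells) 2 members were at least 1.5-fold lower and 1 was at least 1.5-fold higher, against 6.09% lower and 2.04% higher over 9796 genes. Irf7 had 43.1 CPM in WT and 25.3 CPM in Xbp1dIEC (-0.75, -1.11 to -0.44). Irf3 had 37.3 and 23.9 CPM (-0.62, -0.99 to -0.30). Irf4 went the other way, with 10.1 and 17.1 CPM (0.70, 0.25 to 1.27). The Folr2 gate was set on raw UMIs, and its cells had medians of 11068 UMIs in WT and 8620 in Xbp1dIEC. Its own marker list summed to 9247 CPM in WT and 12246 CPM in Xbp1dIEC. Whether the gate took like cells from both libraries was not tested. No alternative was run for the Folr2 or large macrophage gates.

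Large macrophages (1743 and 1704 cells) had no member past 1.5-fold, against 3.07% of genes lower and 0.67% higher. Irf7 had 30.6 and 23.1 CPM there (-0.39, -0.61 to -0.20), Irf3 had a log2 ratio of -0.22 and Irf4 of 0.33. Irf7 was thus lower in both subsets, and whether the size differed between them was not tested. Irf5 behaved in the reverse order, with -0.30 (-0.42 to -0.18) in large macrophages and -0.01 (-0.18 to 0.15) in Folr2 macrophages.

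**Figure D2:**
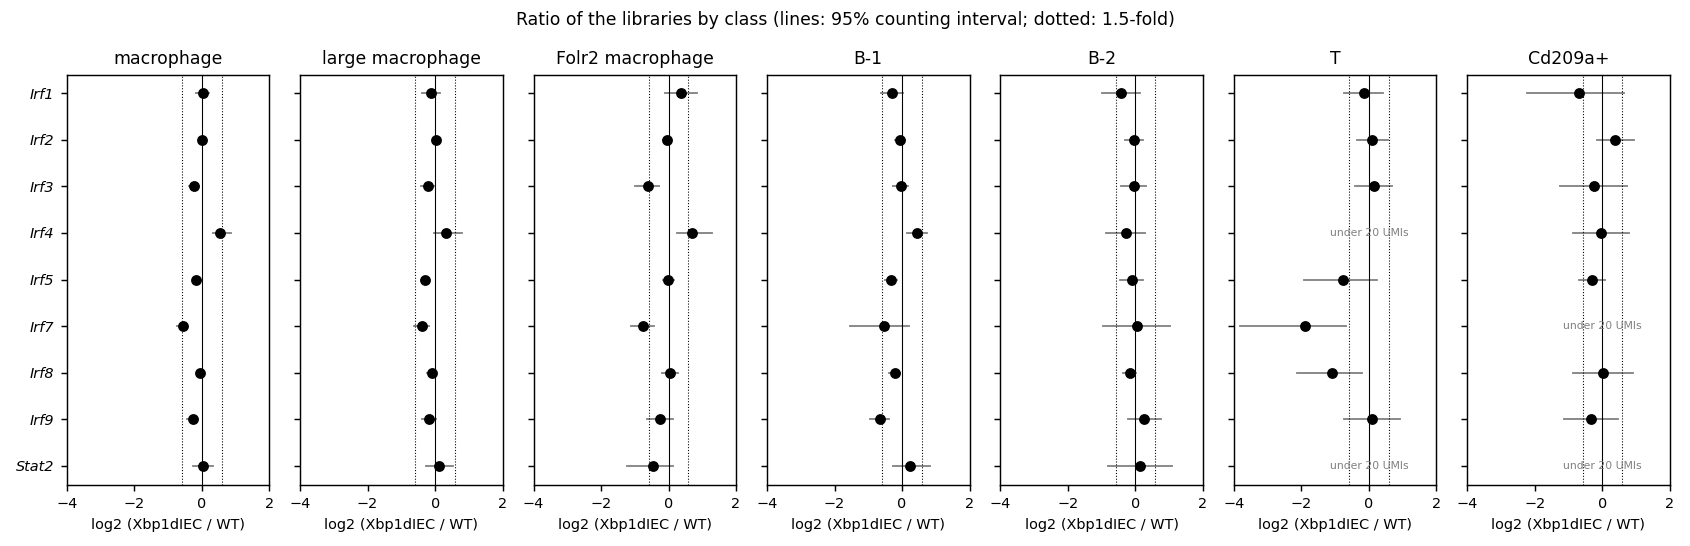
Log2 ratio of Xbp1dIEC over WT for each gene in 7 gates, with points for ratios, grey lines for 95% counting intervals and dotted lines at 1.5-fold. Irf7 lies left of 0 in the 3 macrophage panels, in T cells and in B-1 cells, where its interval spans 0. Irf4 lies right of 0 in the macrophage and B-1 panels, with an interval that spans 0 in large macrophages.

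Macrophages were also divided by the UMIs of 8 antiviral genes that type I interferon induces (Isg15, Ifit1, Ifit2, Ifit3, Oasl2, Rsad2, Mx1 and Oas1a), counted after thinning. A UMI of these genes was found in 388 WT macrophages (12.4%) and in 253 Xbp1dIEC macrophages (8.09%). Cells with such a UMI had more Irf7: 64.7 CPM against 28.7 CPM in WT, and 65.8 against 18.3 CPM in Xbp1dIEC. Between the libraries Irf7 was level in cells with an antiviral UMI (0.02, -0.29 to 0.33) and lower in Xbp1dIEC in cells without one (-0.63, -0.83 to -0.48). Both the share of macrophages with an antiviral UMI and the level of Irf7 outside them were lower in the Xbp1dIEC library. The division depends on which UMIs were kept in thinning. A cell that expressed these genes but kept no such UMI was counted among the cells without one. The level of Irf7 in the cells without one can therefore vary with the share of such missed cells. Whether that level was lower apart from the lower share was not tested.

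Stat2 followed the same division, with 5.95 CPM without and 12.3 CPM with an antiviral UMI in WT, and 5.90 and 18.2 CPM in Xbp1dIEC. Irf9 had 26.9 and 36.1 CPM in WT, a log2 ratio of 0.41 (0.16 to 0.68) for cells with over cells without. In Xbp1dIEC it had 22.8 and 29.5 CPM (0.36, -0.04 to 0.76), an interval that spans 0. Irf2, Irf3, Irf5 and Irf8 moved little with this division. Their log2 ratio of cells with over cells without an antiviral UMI lay between -0.14 and 0.16 in either library. Irf1 (0.11 in WT and 0.34 in Xbp1dIEC) and Irf4 (-0.32 and -0.24) had intervals that span 0 in both libraries. The antiviral genes are induced together with Irf7, so this division is a description and not a test.

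Cycling cells, with 2 or more thinned UMIs of a cell cycle list, were 12.6% of WT and 6.11% of Xbp1dIEC macrophages. The cell cycle list had 17 of 19 genes at least 1.5-fold lower, against 2.35% of all genes. Outside the cycling cells Irf7 had 34.7 CPM in WT and 22.5 CPM in Xbp1dIEC, a log2 ratio of -0.60, which passes 1.5-fold. Among cycling cells it had 26.8 and 18.8 CPM, with an interval from -1.07 to 0.02. Irf4 was higher in Xbp1dIEC in cycling macrophages (5.79 and 14.9 CPM, 1.22, 0.58 to 2.14) and in the others (7.15 and 10.1 CPM, 0.44, 0.21 to 0.78).

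**Figure D3:**
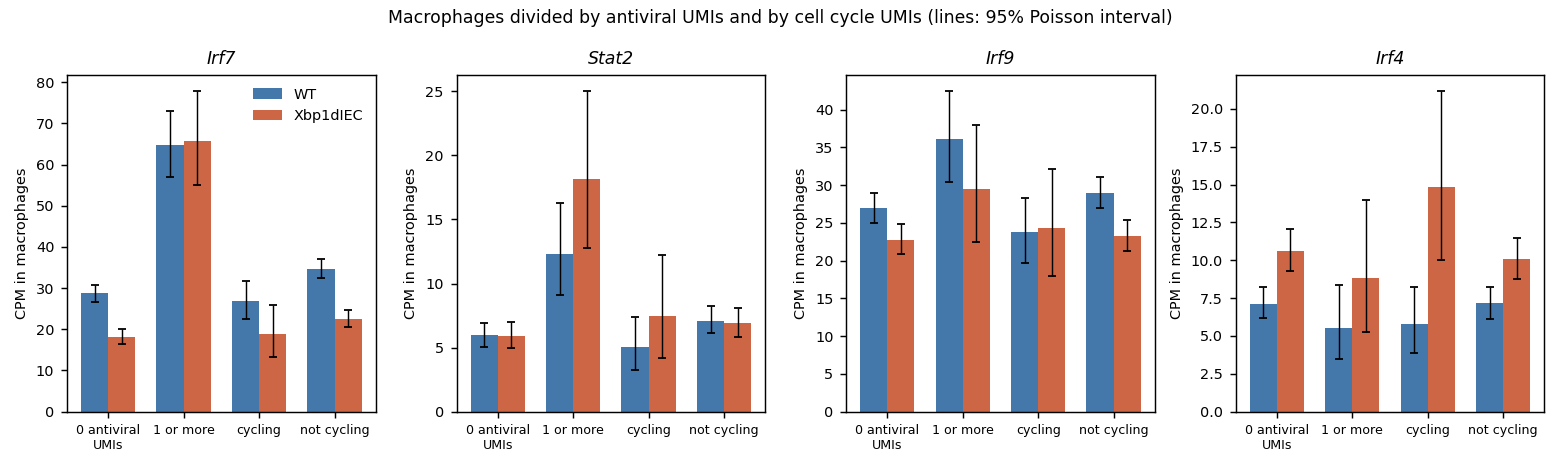
Irf7, Stat2, Irf9 and Irf4 in CPM in macrophages with 0 or with 1 or more antiviral UMIs and in cycling and other macrophages, WT in blue and Xbp1dIEC in orange, with 95% Poisson intervals. Irf7 is at 64.7 and 65.8 CPM in the cells with an antiviral UMI and at 28.7 and 18.3 CPM in the cells without one.

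The rest of the pathway was read from lists. Receptors and kinases had 0 of 7 genes past 1.5-fold in macrophages, with a median log2 ratio of -0.01. Over all genes 2.35% were at least 1.5-fold lower and 0.232% higher, so 0 in a list this short is near those shares. Ifnar1, a chain of the type I receptor, had 22.3 and 24.4 CPM, and Ifnar2, the other chain, had 99.8 and 92.9 CPM. Sensors and adaptors also had 0 of 15 past 1.5-fold, which is near the same shares. Tlr4 had 11.3 and 15.3 CPM (0.41, 0.23 to 0.66). Ddx58, which encodes the RNA sensor RIG-I, had 13.6 and 10.3 CPM (-0.37, -0.63 to -0.17). The 8 interferon genes listed had no measured member in any class.

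Targets of type I interferon had 4 of 17 measured genes at least 1.5-fold lower in macrophages, against 2.35% of all genes. Of the 17, 0 were at least 1.5-fold higher, against 0.232% of all genes. Below 0 were 16 of the 17, against 60.2% of all genes. The median was -0.35, against -0.05 over all genes. Rtp4 had 93.2 and 57.8 CPM (-0.68, -0.78 to -0.60), and Ifit1, which binds viral RNA, had 3.03 and 1.56 CPM (-0.65). Usp18, an inhibitor that interferon induces, had 5.76 and 3.24 CPM (-0.67, -1.23 to -0.44). In large macrophages 0 of 16 targets were at least 1.5-fold lower, against 3.07% of all genes, and the median was -0.27. Below 0 were 14 targets, against 59.9% of all genes, whose median was -0.06. In Folr2 macrophages 6 of 15 targets were at least 1.5-fold lower, against 6.09% of all genes. Below 0 were 15 of 15, against 60.9% of all genes. The median there was -0.51 against -0.08 over all genes, and Rtp4 had 119 and 64.3 CPM (-0.88). Targets of interferon gamma and Irf1 had 0 of 12 past 1.5-fold in macrophages, against 2.35% of all genes lower and 0.232% higher. Their median was -0.25, against -0.05 over all genes. Tap1, a peptide transporter for class I antigen presentation, had 21.0 and 15.4 CPM in macrophages (-0.42).

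**Figure D4:**
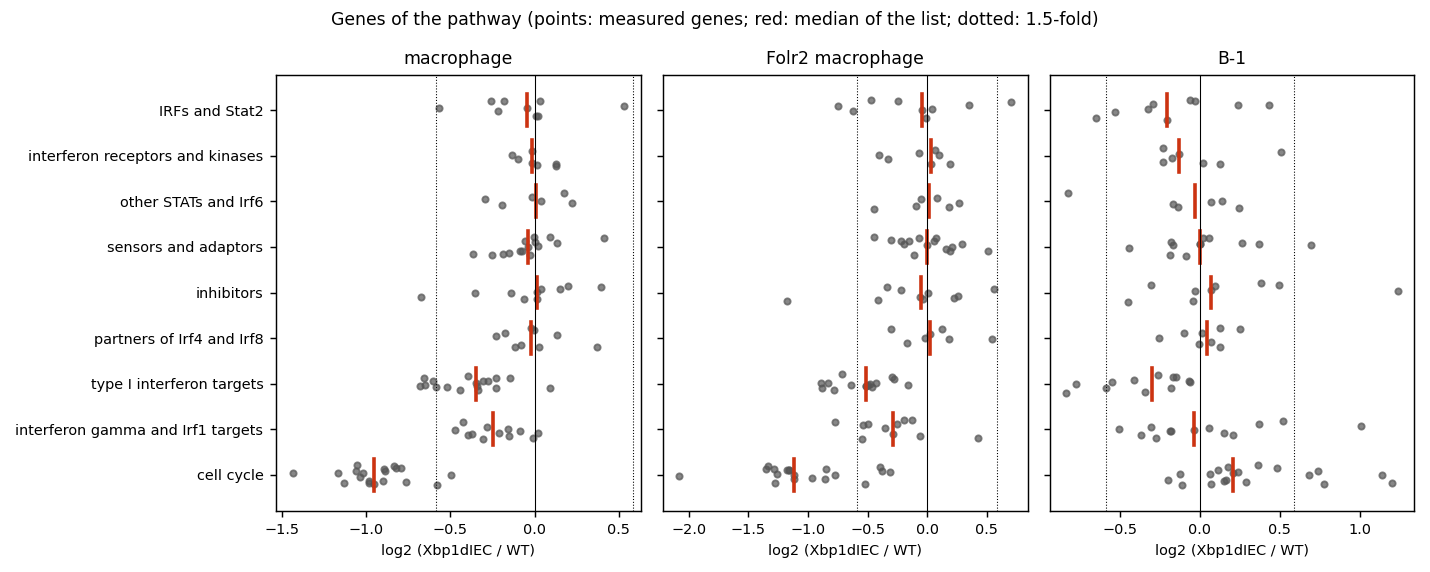
Log2 ratio of Xbp1dIEC over WT for measured genes of 9 lists in macrophages, Folr2 macrophages and B-1 cells, with red lines for medians and dotted lines at 1.5-fold. Type I interferon targets have medians of -0.35, -0.51 and -0.30, and the cell cycle list is lower in both macrophage panels and not in B-1 cells.

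In B-1 cells, the innate-like B cells of body cavities, 1 of 9 members was at least 1.5-fold lower and 0 were higher, against 3.93% and 4.55% of 9799 genes. Irf9 had 41.7 CPM (36.0 to 48.1) in WT and 26.2 CPM (22.8 to 30.1) in Xbp1dIEC, a log2 ratio of -0.65 (-0.96 to -0.38). Its thinned share of cells was 7.66% (5.45 to 10.4) and 4.42% (3.06 to 6.15), intervals that overlap. Irf7 had 23 and 25 UMIs, that is 5.08 and 3.20 CPM (-0.53, -1.54 to 0.22). Without the added CPM the Irf7 level lay past 1.5-fold lower, on these few UMIs. Irf5 had 90.7 and 72.4 CPM (-0.32, -0.51 to -0.14), and Irf8 had 115 and 99.0 CPM (-0.21, -0.37 to -0.05). Irf4, which B cells need to become plasma cells, had 28.9 and 39.4 CPM (0.43, 0.15 to 0.75).

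Beside Irf4, Xbp1 had 26.3 and 41.2 CPM in B-1 cells (0.63, 0.34 to 0.97), Pax5, which maintains B cell identity, had 87.4 and 115 CPM (0.39), and Prdm1, a plasma cell regulator, had 3.31 and 2.18 CPM with an interval from -1.70 to 0.50. Bach2, which restrains plasma cell differentiation, had 40.4 and 29.9 CPM (-0.42, -0.72 to -0.15). Socs1, an inhibitor of cytokine signalling, had 18.5 and 45.0 CPM (1.24, 0.93 to 1.64), and Gbp7, a guanylate-binding protein, had 60.0 and 122 CPM (1.01, 0.82 to 1.22). Tap1 was lower, with 47.0 and 32.9 CPM (-0.50, -0.78 to -0.25), as was Ptpn2, a phosphatase that acts on cytokine signalling, with 21.0 and 15.1 CPM (-0.45, -0.88 to -0.07). Targets of type I interferon were below 0 in 12 of 12 measured genes in B-1 cells, against 49.8% of all genes. Of the 12, 3 were at least 1.5-fold lower, against 3.93% of all genes. The median of the 12 was -0.30, against 0.00 over all genes. The Xbp1dIEC B-1 cells also had 5 of 19 cell cycle genes at least 1.5-fold higher, against 4.55% of all genes. Mki67, with 5.52 and 13.9 CPM, was among them. Without cycling cells 1 member, Irf9, was still at least 1.5-fold lower.

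B-2 cells, the follicular-type B cells, had no member past 1.5-fold, against 7.49% lower and 4.4% higher over 7546 genes. Irf8 had 316 CPM (292 to 343) in WT, the highest of the 6 classes, and 282 CPM (255 to 312) in Xbp1dIEC, second to NK cells, and thinned shares were 41.5% and 42.2%. Irf9 had 41.6 and 50.1 CPM (0.26, -0.22 to 0.75), and whether its ratio differed between B-1 and B-2 cells was not tested. Irf4 had 37.4 and 30.9 CPM (-0.27, -0.86 to 0.30). Irf4 and Irf8 UMIs were found together in 62 of 483 WT and 117 of 747 Xbp1dIEC B-1 cells, and in 51 of 393 and 30 of 301 B-2 cells. In all, Irf4 UMIs were in 104 and 219 B-1 cells and in 63 and 38 B-2 cells. Irf8 UMIs were in 263 and 381 B-1 cells and in 281 and 193 B-2 cells. These counts are before thinning, and B-1 cells were deeper than B-2 cells. Whether the 2 genes meet beyond their separate shares was not tested.

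In T cells 3 of 7 measured members were at least 1.5-fold lower and 0 were higher, against 7.95% and 6.75% of 6223 genes. Irf7 had 26 UMIs in 23 of 270 WT cells and 5 UMIs in 5 of 217 Xbp1dIEC cells, that is 23.3 and 5.56 CPM (-1.89, -3.81 to -0.66). No T cell held more than 2 Irf7 UMIs, and the thinned shares were 5.56% (3.14 to 9) and 1.38% (0.286 to 3.99), with intervals that overlap. The Irf8 and Irf5 counts rest on few cells. Of 38 WT Irf8 UMIs, 33 were in 2 cells with 17 and 16 UMIs, and of 14 Xbp1dIEC UMIs, 11 were in 1 cell. Those 2 WT cells also held 10 of the 26 Irf5 UMIs. They had 7 and 4 UMIs of Spi1 and 2 and 5 of Xcr1, which are genes of dendritic and other myeloid cells. The 1 Xbp1dIEC cell held 4 of the 12 Irf5 UMIs of its library, with 3 UMIs of Spi1 and 0 of Xcr1. Without cells with 2 or more Spi1 UMIs, 1 member, Irf7, was at least 1.5-fold lower in T cells, and with the stricter gate 0 of 4 measured members were, Irf7 being under the minimum of UMIs there. Irf1 had 58.3 and 52.3 CPM (-0.15), and Irf4 had 2 and 5 UMIs.

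Cd209a+ cells held the highest Irf5, with 261 CPM (218 to 310) in WT and 211 CPM (173 to 255) in Xbp1dIEC, apart from the next class in both libraries. Their Irf4 was 52.1 and 50.8 CPM, the highest of the classes, though its interval overlapped that of the next class. Of 7 measured members 1 was at least 1.5-fold lower, against 13.3% of 4388 genes, and 0 were higher, against 7.36%. That member was Irf1, with 13 and 8 UMIs and an interval from -2.21 to 0.64. Irf8 had 23 and 24 UMIs in these cells, and 18 of them came from 1 cell in either library. Each of those cells also held Siglech, a marker of plasmacytoid dendritic cells, with 5 and 2 UMIs, and Bst2 with 57 and 35 UMIs.

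NK cells were few, and 1 UMI was worth 12.7 CPM in WT and 10.7 CPM in Xbp1dIEC. Irf8 was the only measured member, with 242 CPM (146 to 378) and 299 CPM (199 to 433), and 0 of 1 passed 1.5-fold, against 10.8% lower and 12.4% higher over 1147 genes. In WT 1 cell held 8 of its 19 UMIs, and in Xbp1dIEC 1 cell held 12 of 28. The log2 ratio of 0.30 became -1.86 with the stricter gate of 14 WT and 19 Xbp1dIEC cells. Irf4 and Stat2 had 0 UMIs in both libraries, and taking 3 counts as the limit that 0 allows, the share of the 21 and 29 cells with a UMI could be up to 14.3% and 10.3%. Irf1 had its highest level in NK cells, 102 and 107 CPM, and intervals overlapped those of T cells.

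Irf2 was highest in macrophages and apart from the next class, and B-2 cells followed with 159 and 155 CPM. For Irf8 the order was B-2 and NK cells, then B-1 cells, then macrophages, with B-2 and NK cells not apart. Classes next to each other in rank are called apart where their 95% intervals did not overlap and their order was the same in both libraries. Irf4 was at 28.9 CPM or more in Cd209a+, B-1 and B-2 cells of both libraries, and macrophages were apart below them. Irf3 had no neighbours apart in WT, from 79.6 CPM in B-2 cells to 33.9 CPM in macrophages. Only neighbours are compared, so this does not mean that the ends of that range overlap. Stat2 had no neighbours apart in WT either.

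Over the 12 levels of 6 classes in 2 libraries, the genes most like each member by Pearson correlation of log2 levels were taken from 10631 genes, and the points share libraries and depth. Irf5 went with Marcksl1 (r = 0.984), Spi1 (0.977) and Ctsh (0.976). Irf1 went with Jak1 (0.982), the kinase of the interferon receptors, H2-Q4 and Arfrp1. Irf3 went with Card6 (0.980), Sp100 and Ptprcap, and Stat2 with Dhx57 (0.989). Irf7 had the weakest best match, Pttg1ip at 0.891. Between members the highest correlation was of Irf4 with Irf5 (0.856) and the lowest of Irf1 with Irf5 (-0.846). The NK points lie at or near the floor for some members, with 0 UMIs of Irf4 and Stat2 in both libraries. Irf5 had 1 and 0 UMIs there, and Irf1 8 and 10. The weight of the NK points in the correlations was not tested.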

How the data were processed

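The deposited values are counts, UMIs per gene and barcode as whole numbers, per the file headers, without normalization. Cell Ranger 2.2.0, Seurat 2.3.0 and mm10 are listed, per the submitters' processing notes, with no role given, and the annotation is not given in the sources used here. Minimums of 500 UMIs and 200 genes and a limit of 10% mitochondrial UMIs removed 6 barcodes from WT and 20 from Xbp1dIEC. Scrublet in scanpy 1.11.5 (expected rate 5%) called 140 and 113 doublets, which were removed. Gates used summed raw UMIs: 4 or more of the macrophage list, 6 of B, 3 of T, 2 of NK and 3 of Cd209a, with upper limits on the other lists. B-1 cells had 2 or more UMIs of B-1 markers and no Fcer2a or Cr2, and B-2 cells the reverse. Folr2 macrophages had 10 or more UMIs of their list. Of all B cells, 845 WT and 847 Xbp1dIEC cells were in neither B gate. Levels are summed UMIs as CPM, with exact Poisson intervals. Ratios have exact conditional binomial intervals and shares Clopper-Pearson intervals, after thinning each cell to 2000 UMIs (no cell was shallower). A symbol shared by several gene IDs (58 symbols) was not used. Named genes are the 9 members, up to 2 highest and 2 lowest measured genes per list and class, and the 3 most alike genes per member. Members and lists were chosen with earlier results of these data known. The calculation was tested on simulated data. Alternatives changed the added CPM, the minimum of UMIs, doublets, mitochondrial share, gates, total, averaging and cycling cells. A gene of the lists is not reported here.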

Additional observations from a re-analysis of the deposited data

How the results depend on the processing

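Of 397 member values of the 6 classes under alternatives, 387 lay within the counting interval of the reported value. Another 9 lay outside it and 1 reversed, a label kept for members reported past 1.5-fold. Other changes of sign are among the 387 and the 9: Irf9 in Cd209a+ cells, reported at -0.33, reached 0.27. With no minimum of UMIs these ratios stay as reported, so those values lay within by construction and check nothing. Irf7 in macrophages was below 0 in all 10 alternatives, from -0.66 to -0.43. In T cells Irf7 was below 0 in all 9, from -2.09 to -1.10. Each of these counts includes the setting with no minimum of UMIs, which repeats the reported value. Irf8 in T cells was 1.63 with the gate set after thinning, the reverse of -1.08, and the cause was not tested. Members at least 1.5-fold lower in macrophages went from 0 to 1 without cycling cells and in cells with 6000 to 10000 UMIs, an alternative chosen after seeing the data. In Cd209a+ cells the count of 1 became 0 with 10 CPM added, with the stricter gate and without cycling cells, and 2 with no minimum of UMIs, with the gate after thinning and with the mean of cells. In B-1 cells the count of 1 became 0 with 10 CPM added, with the gate after thinning and in cells with 6000 to 10000 UMIs, and 2 with under 5% mitochondrial UMIs. In T cells the count of 3 became 0 with the stricter gate, and 1 with the gate after thinning, with the mean of cells and without cells with 2 or more Spi1 UMIs, which was also chosen after seeing the data. In NK cells the count of 0 became 3 with no minimum of UMIs, and 1 with the stricter gate and with the gate after thinning. The count lower in B-2 cells was 0 in all alternatives. With the stricter gate Irf9 in B-2 cells (0.68) and Stat2 in B-1 cells (1.26) were past 1.5-fold higher and Irf8 in NK cells (-1.86) lower, and with the gate after thinning Irf8 in Cd209a+ cells was 2.04. The causes of these moves were not tested. Irf4 in macrophages lay between 0.27 and 0.60. Among these alternatives it passed 1.5-fold only with ribosomal, mitochondrial and immunoglobulin genes left out of the total. No alternative left out the added CPM, and without it the Irf4 levels in macrophages lay just past 1.5-fold. Few cells limit the NK and Cd209a+ values. No paired analysis was possible because each genotype has 1 library.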

Other observations

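In the 1695 WT and 1622 Xbp1dIEC cells outside all gates, Irf7 had 13.6 and 7.84 CPM (log2 ratio -0.73, -1.16 to -0.45), Irf4 had 30.6 and 38.4 CPM (0.32, 0.15 to 0.52) and Irf8 had 144 and 125 CPM (-0.21). These cells hold markers of several classes or too few of any, so the values belong to no class. Among B-1 cells of the Xbp1dIEC library, 1 cell held 25 of the 774 Irf8 UMIs, and no WT B-1 cell held more than 8. In macrophages the highest Irf7 count was 12 UMIs in a WT cell and 11 in an Xbp1dIEC cell.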
